A study of Mus musculus with 2 samples.

Results

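The mesenchymal cells of mouse pancreatic islets, meaning pericytes and fibroblasts, were selected on their own transcripts and made up 82 of 10781 cells that passed quality filters. A barcode was taken when Ins1 and Ins2 together held under 20% of its unique molecular identifiers (UMIs, 1 per captured RNA molecule), at least 3 of the 8 genes Pdgfrb, Col1a1, Col1a2, Col3a1, Bgn, Des, Notch3 and Rgs5 were detected with 8 or more UMIs in total, and fewer than 3 of the endothelial genes Pecam1, Plvap, Kdr, Egfl7 and Cdh5 were present. The levels of these 8 genes are therefore a description of the choice. The cells came from wild-type C57BL/6J mice: 4 animals on regular chow gave the chow library, and 5 animals on a diet with 60% fat gave the high-fat (HFD) library, both fed for 6 weeks from weaning. Islets of each diet were pooled, kept overnight in culture, dispersed with trypsin and strained through a 35 µm mesh before 3' droplet sequencing. No source ties a cell to a mouse and each diet has 1 library, so diet and library cannot be told apart, no test of diet exists, and all intervals below cover counting error only.

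Pericytes wrap the capillary endothelium inside islets. They hold on to it through PDGF-B signalling to the receptor encoded by Pdgfrb, keep a Notch3 programme, and regulate capillary diameter through contractile proteins and potassium channels. Fibroblasts sit in the interstitium and the islet capsule and build fibrillar collagen fibres with small proteoglycans such as decorin (Dcn) and lumican (Lum). Because both lineages make Pdgfrb, Bgn and some collagen, genes outside the selection rule are needed to separate them.

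The chow library held 89292222 UMIs in 6509 barcodes and the HFD library 68544729 in 4539, and 6387 and 4394 cells passed the filters. Of these, 31 chow cells and 51 HFD cells were mesenchymal, with a median of 6389 and 7718 UMIs per cell. Near the threshold, 4 chow and 5 HFD members had only 8 to 11 UMIs of the 8 rule genes, while 8 cells in each library had 3 such genes but 3 to 7 UMIs and stayed outside. A further 16 chow and 8 HFD cells met the mesenchymal criteria but carried 3 or more endothelial genes and were left out. The libraries shared 45 barcodes, 1 of them a chow member and none an HFD member.

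Mesenchymal cells took 0.485% of chow cells (95% interval 0.330 to 0.688%, exact Clopper-Pearson). Among HFD cells they took 1.16% (0.865 to 1.52%). Endothelial cells took nearly the same share in both libraries, 3.12% (199 cells) and 3.16% (139 cells). Relative to 100 endothelial cells there were thus 15.6 mesenchymal cells on chow and 36.7 on HFD. Macrophages also had a larger share in the HFD library, 2.41% against 1.28%. The intervals of the mesenchymal shares do not overlap, but they say nothing about the spread between mice or between cell preparations. The shares also depend on the endothelial limit, which left out 16 chow and 8 HFD cells, more in the library with fewer members. Shares with those cells counted in are not given here.

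To tell pericyte from fibroblast traits, each cell was scored by how many of 14 pericyte genes and of 14 fibroblast genes it contained, none of them used in the selection. Cells with more pericyte genes are called pericyte-sided and cells with more fibroblast genes fibroblast-sided; these are ranges along a count, not cell types. In the chow library 20 of 31 cells were pericyte-sided (64.5%, 45.4 to 80.8%), 9 fibroblast-sided (29.0%, 14.2 to 48.0%) and 2 tied. In the HFD library 45 of 51 cells were pericyte-sided (88.2%, 76.1 to 95.6%), 4 fibroblast-sided (7.84%, 2.18 to 18.9%) and 2 tied.

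Most cells leaned clearly to 1 side, since only 5 chow cells and 4 HFD cells had gene numbers that differed by 1 or less. Chow fibroblast-sided cells held 5 to 8 fibroblast genes against 0 to 4 pericyte genes, and chow pericyte-sided cells held 2 to 11 pericyte genes against 0 to 2 fibroblast genes. The HFD pericyte-sided cells reached 5 fibroblast genes in 1 cell. As a share of all cells, pericyte-sided cells made up 0.313% of the chow library (0.191 to 0.483%) and 1.02% of the HFD library (0.748 to 1.37%). Fibroblast-sided cells made up 0.141% (0.0645 to 0.267%) and 0.0910% (0.0248 to 0.233%). The larger mesenchymal share in the HFD library therefore lay in pericyte-sided cells, and the fibroblast-sided shares overlapped.

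Depth moved with the sides. Fibroblast-sided cells were deep, with a median of 17901 UMIs in chow and 15569 in HFD, against 5402.5 and 7183 in pericyte-sided cells. When every cell was thinned to 3800 UMIs, 16 of 31 chow cells (51.6%) and 41 of 51 HFD cells (80.4%) were pericyte-sided by their thinned genes, and 9 and 6 were fibroblast-sided. Because of their depth, the 9 chow fibroblast-sided cells held 149284 of the 292175 UMIs of chow mesenchymal cells, while the 4 in the HFD library held 69077 of 487767. Any summed level over all mesenchymal cells is thus weighted towards fibroblast-sided cells in the chow library.

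**Figure D1:**
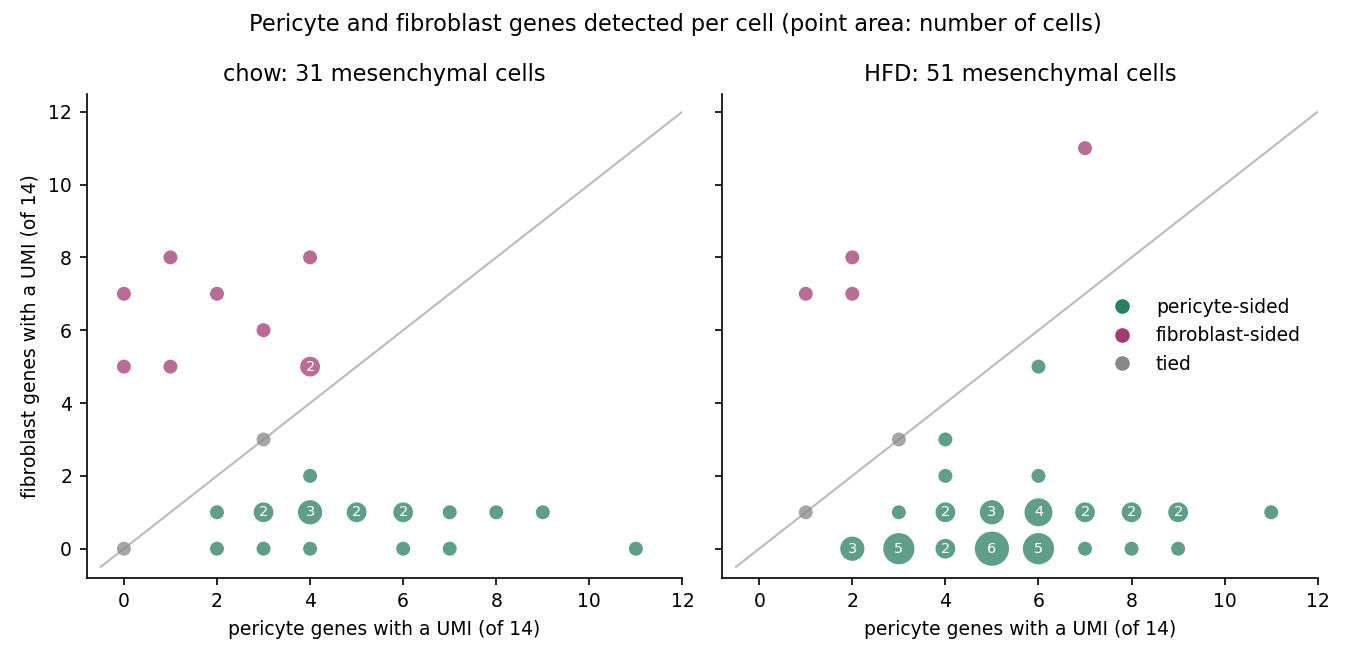
Number of pericyte genes (x axis, of 14) and fibroblast genes (y axis, of 14) with a UMI in each mesenchymal cell, for the chow (left, 31 cells) and HFD (right, 51 cells) library; point area gives the number of cells at a position, printed where above 1, and the grey line marks equal numbers. The 9 chow and 4 HFD fibroblast-sided cells sit above the line, apart from the 20 and 45 pericyte-sided cells below it.

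The pericyte genes outside the rule that follow are all on the list that set the sides. Their higher level in pericyte-sided cells therefore describes that choice. Levels are summed UMIs as CPM (counts per 1000000 UMIs) of the cells concerned, and since 3' libraries count molecules they do not scale with gene length. Gja4, the gap junction protein connexin 37, stood at 237 CPM in chow and 293 CPM in HFD pericyte-sided cells, with a UMI in 13 of 20 and 31 of 45 cells. Ndufa4l2, a mitochondrial protein common in mural cells, stood at 395 and 381 CPM, and Cox4i2, a subunit of cytochrome c oxidase, at 150 and 197 CPM. Ednra, the endothelin A receptor, stood at 150 and 132 CPM. The last 3 genes had a UMI in 10 to 13 of 20 chow and 26 to 32 of 45 HFD cells. All 4 were higher than in fibroblast-sided cells, where Gja4 had 1 UMI in 9 chow cells and none in the 4 HFD cells.

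Neither Gja4 nor the potassium channel pair of pericytes was exclusive to mesenchymal cells. Endothelial cells held Gja4 at 78.4 CPM in chow and 86.2 CPM in HFD. After thinning 15.6% and 19.4% of endothelial cells had a UMI of it, against 32.3% and 54.9% of mesenchymal cells. Kcnj8, the pore subunit of the ATP-sensitive channel of mural cells, stood at 340 and 179 CPM in pericyte-sided cells, and Abcc9, its regulatory subunit, at 111 and 72.5 CPM. Neither had a UMI in fibroblast-sided cells, but both are on the list that set the sides. Endothelial cells held Kcnj8 at 187 and 131 CPM, and after thinning 33.2% of chow endothelial cells had a UMI of it, against 41.9% of chow mesenchymal cells. In beta cells, which serve as the measure of free RNA, the share was 0.110%. Mcam was higher in endothelial cells (282 and 307 CPM) than in all mesenchymal cells (10.3 and 30.8 CPM).

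The 5 genes below, all for secreted proteins, were abundant in pericyte-sided cells, and not all of them separated the sides. Mgp, the matrix Gla protein that limits calcification, reached 39920 CPM in chow and 27190 CPM in HFD pericyte-sided cells. Spp1, the secreted phosphoprotein osteopontin, reached 16180 and 15210 CPM. Igfbp7 and Igfbp5, binding proteins of insulin-like growth factors, reached 7992 and 8227 CPM and 4656 and 6670 CPM, and Sparc, a collagen-binding protein, 4103 and 3492 CPM. Each of these 5 genes stood above every rule gene, the highest of which was Bgn, the proteoglycan biglycan, at 688 and 1078 CPM. In fibroblast-sided cells Mgp stood at 1360 CPM in chow and 13910 CPM in HFD, and Igfbp5 at 60.3 and 57.9 CPM. Sparc did not separate the sides, with per-cell medians of 39.4 in chow pericyte-sided and 46.9 in chow fibroblast-sided cells per 10000 UMIs, and 36.4 and 22.7 in HFD.

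Spp1 was far higher in pericyte-sided cells than in the other cells compared. It stood at 536 and 275 CPM in fibroblast-sided, 902 and 353 CPM in endothelial and 85.6 and 17.1 CPM in beta cells. It was also uneven: 13 of 20 chow and 35 of 45 HFD pericyte-sided cells had a UMI, with a median of 79.9 and 65.3 and a highest value of 737 and 732 per 10000 UMIs. Spp1 is also a gene of pancreatic ducts and of activated stellate cells. Of 14 stellate cell genes, Spp1 included, 11 had a UMI in members, with sums of 9104 CPM in chow and 13410 CPM in HFD, of which Spp1 gave 7280 and 12080 CPM. Lrat, Reln and Lhx2, genes of quiescent stellate cells, were at 0 in all 82 cells. All 12 ductal and acinar genes, again with Spp1, had a UMI, with sums of 7547 and 12150 CPM. Among them the keratin Krt7 stood at 37.7 and 12.3 CPM, Epcam at 47.9 and 10.3 CPM and Sox9 at 27.4 and 14.4 CPM. The 6 mesothelial genes, Krt19 among them, were at 0 in every member. What part stellate or ductal RNA has in the Spp1 level was not tested.

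Fibroblast-sided cells had more of the collagen gene Col1a1 and the proteoglycan gene Dcn, but not of every such gene. The proteoglycan gene Aspn stood at 372 and 163 CPM in pericyte-sided against 6.70 and 86.9 CPM in fibroblast-sided cells. The collagen gene Col18a1 stood at 182 and 332 CPM against 26.8 and 72.4 CPM. Dcn was detected in all 9 chow and all 4 HFD fibroblast-sided cells, at 710 and 521 CPM. Dcn, Gsn, Serpinf1, Clec3b and Pi16 are on the fibroblast list that set the sides. Their contrast between the sides therefore describes that choice. Col1a1, a rule gene encoding the main chain of type I collagen, stood at 1032 CPM and 1795 CPM. In HFD 105 of its UMIs lay in 1 of the 4 cells, and the per-cell medians were 8.28 in chow and 7.80 in HFD per 10000 UMIs. Gsn, the actin-severing protein gelsolin, stood at 482 and 333 CPM, and Serpinf1, an antiangiogenic serpin, at 449 and 362 CPM. Serpinf1 had no UMI in any of the 65 pericyte-sided cells, whose summed counts allow up to 23.7 CPM in chow and 7.77 CPM in HFD at 3 counts. The adventitial fibroblast genes Clec3b and Pi16 were at 0 in every member, while the other 12 of the 14 fibroblast genes had a UMI. Among these, Dpt was present in 16.1% of chow and 13.7% of HFD members and Ly6a in 6.45% and 3.92%.

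Conversely, Rgs5, a regulator of G protein signalling and a common pericyte marker, was absent from all 13 fibroblast-sided cells, which allows up to 20.1 CPM in chow and 43.4 CPM in HFD. In pericyte-sided cells it stood at 601 and 681 CPM, with a UMI in 18 of 20 and 39 of 45 cells. Ednrb, the endothelin B receptor, was likewise at 0 in fibroblast-sided cells and at 672 and 308 CPM in pericyte-sided cells. Endothelial cells held more Ednrb, at 1020 CPM in chow and 1421 CPM in HFD. Since Rgs5 was a selection gene, the cells without it had to pass through others, and the gap describes how the chosen cells divide.

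The genes with the largest contrast between the sides in both libraries were taken by rule over all genes. Kcnj8, Gja4, Serpinf1 and Mfap5 among them helped to set the sides, and Rgs5 and Col1a1 are selection genes, so their contrast is a description of those choices. Higher in pericyte-sided cells were Rgs5, Igfbp5, Ednrb, Epas1, Ptp4a3, Kcnj8, Gja4, Resp18, Pid1 and Mustn1. Epas1 is a hypoxia-inducible transcription factor and Ptp4a3 a phosphatase of vascular smooth muscle. Ptp4a3 stood at 1510 and 1179 CPM against 46.9 and 29.0 CPM in fibroblast-sided cells. Resp18 is an endocrine gene, and a single cell held 49.1% of its chow and 80.2% of its HFD counts, so its place here rests on single cells.

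Higher in fibroblast-sided cells were, among others, Serpinf1, Aldh1a3, Mfap5, Col8a1, S100a16, Col1a1, Loxl1, Nrep and Tnc. Mfap5 and Loxl1 belong to elastic fibre assembly and Tnc to the provisional matrix of remodelling tissue. Tnc stood at 268 and 376 CPM in fibroblast-sided and 23.7 and 62.2 CPM in pericyte-sided cells. Aldh1a3, an enzyme of retinoic acid synthesis, rested on few cells, since 1 cell held 85.9% of its chow counts. Mfap5 was similar, with 62.5% and 66.7% of its counts in 1 cell of each library. With 9 and 4 fibroblast-sided cells, a single cell can set a level.

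**Figure D2:**
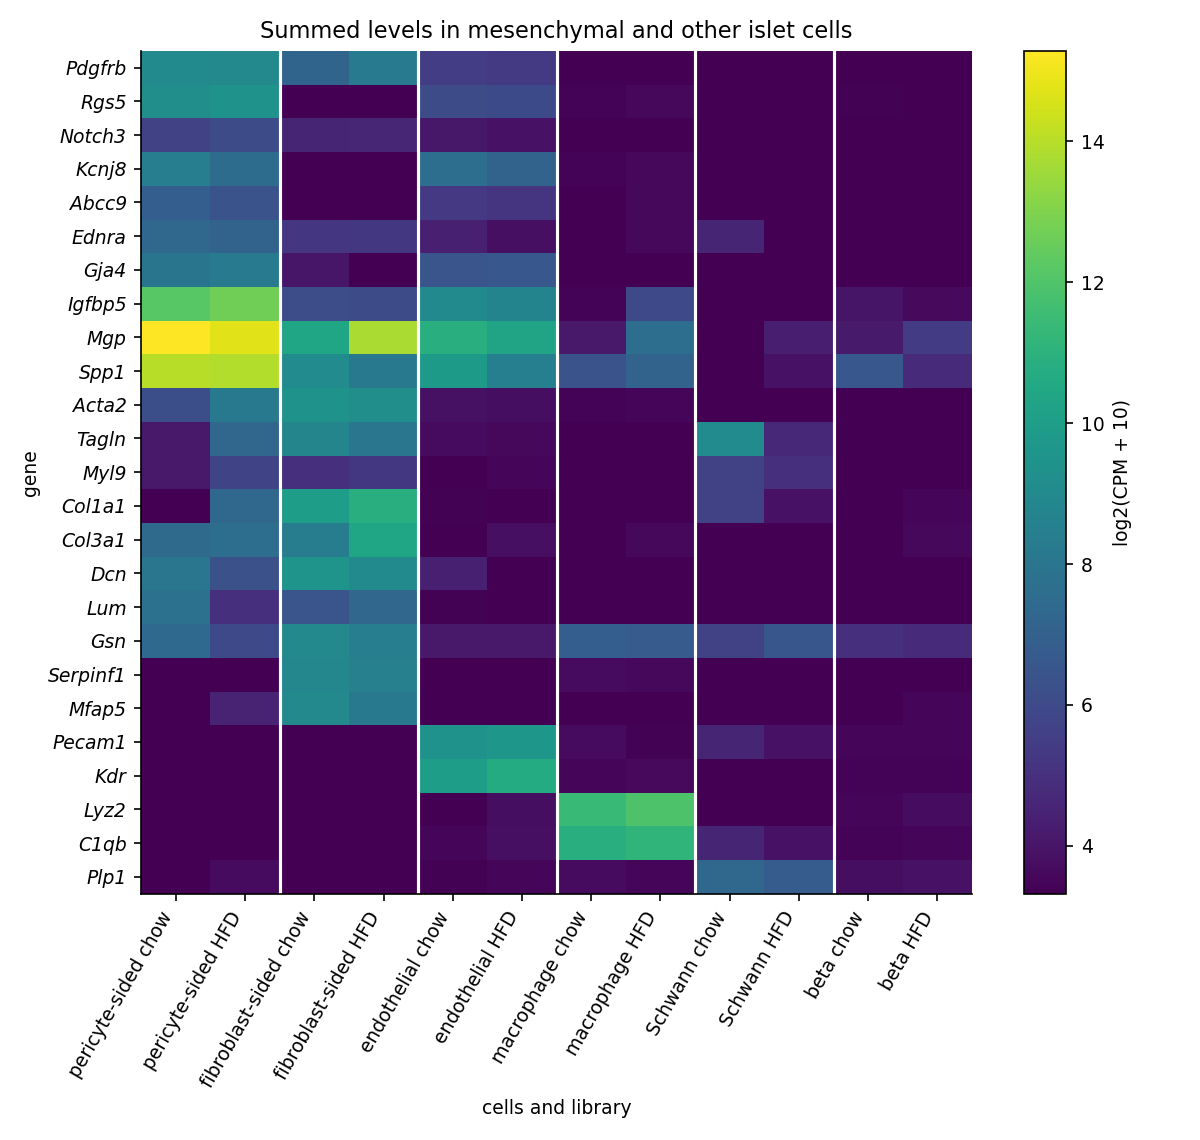
Summed levels of 25 genes (rows) as log2(CPM + 10), colour scale at right, in pericyte-sided and fibroblast-sided mesenchymal cells and in 4 other cell groups (columns, chow then HFD). Rgs5, Igfbp5 and Spp1 are high in pericyte-sided cells, Col1a1, Dcn and Serpinf1 in fibroblast-sided cells, and Pecam1, Kdr, Lyz2 and C1qb are at 0 in both.

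Compared with all other islet cells, the genes most enriched in the 82 cells joined both lineages. By the lower of the contrasts in the 2 libraries the leading genes outside the rule included Acta2, Col6a1, Aspn, Ppp1r14a, Heyl, Prrx1, Cygb, Fbn1, Mgp, Il6, Tpm2, Tagln, Lhfp, Il11, Col5a2, Tnc, Ndufa4l2, Wisp1 and Fstl1. Prrx1, a homeobox factor of mesenchyme, was present in 71.0% of chow and 88.2% of HFD members at 216 and 303 CPM. Cygb, the globin of stellate cells and pericytes, was present in 74.2% and 84.3% at 418 and 474 CPM. Heyl, a Notch target, stood at 137 and 150 CPM, and Lhfp was present in all 31 chow and 50 of 51 HFD cells.

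Pdgfa, a ligand of the PDGF alpha receptor, was widespread in pericyte-sided cells, with a UMI in 18 of 20 and 42 of 45 cells. Pdgfb, the ligand that Pdgfrb binds, had 2 UMIs in all members and stood at 94.8 and 117 CPM in endothelial cells, and the Notch ligand Dll4, at 0 in all members, stood at 361 and 398 CPM in endothelial cells.

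Of 10 endothelial and 10 macrophage genes, 4 each were at 0 and the rest had UMIs, as had genes of Schwann and endocrine cells. Pecam1, Kdr, Cldn5 and Tie1 were at 0 in all members, as were the macrophage genes Lyz2, C1qb, Adgre1 and Ptprc. Pecam1 and Kdr are among the endothelial genes that the selection limited. Of those genes, 5 chow and 9 HFD members had 1, and 1 HFD member had 2. Of 10 endothelial genes 6 had a UMI, and their sum was 127 CPM in chow and 166 CPM in HFD members. Of 10 macrophage genes 6 had a UMI, with sums of 10.3 and 18.5 CPM. Most endothelial counts were Esam (89.0 and 115 CPM, all but 3 of its UMIs in pericyte-sided cells), also a gene of mural cells. All 8 Schwann genes had a UMI, with sums of 175 and 424 CPM, of which Cryab, a small heat shock protein that many cells make, gave 161 and 355 CPM. In HFD 1 tied cell with 10 UMIs over 4 Schwann genes was present, and a single cell held 58.4% of the Cryab counts. Hormone RNA was present: Ins1 and Ins2 took a median of 2.55% and 2.21% of UMIs, close to the 2.21% and 2.40% of endothelial cells. In 3 chow and 3 HFD members the 10 hormone and secretory genes reached 10% or more, and 1 pericyte-sided cell in each library held 88.2% and 92.7% of all Gcg counts of members. Of these 6 cells, the HFD cell with the Gcg counts was among the 5% with the highest doublet score, and their part in the results was not tested beyond leaving them out.

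Smooth muscle genes separated the cells in a further way. Acta2, smooth muscle actin, had a UMI in only 10 of 31 chow and 18 of 51 HFD cells, and Tagln, transgelin, in 6 and 16. Cells with 10 or more Acta2 UMIs, 5 in each library, held 87.2% of chow and 77.2% of HFD Acta2 counts. All 5 such chow cells were fibroblast-sided, and of the 5 HFD cells 4 were pericyte-sided. Myh11, smooth muscle myosin, had 1 UMI in chow and 12 in HFD, and Cnn1 and Synpo2 were at 0. Cald1 and Tpm1, actin-binding proteins found in many contractile cells, were broad, at 1636 and 2038 CPM and at 376 and 476 CPM over all members.

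The promoters of the contractile list gave little to set beside this. RefSeq sequences of 300 bases around the start (250 before, 50 after; GRCm38.p6) were found for 11 of its 14 genes, and only that of Myl9, a myosin light chain, held a CArG box, the serum response factor motif. Of all 32851 promoters 1.63% held it. No promoter was found for Tagln, Myh11 and Actg2, so these genes were not searched. For 13 PDGF and Notch genes 9 promoters were found, and that of Hey2 alone held GTGGGAA on either strand, against 6.38% of all promoters. These matches are letters in a window and not sites of binding.

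Between the diets, 2103 genes with a summed count of at least 50 were compared over all mesenchymal cells. The log2 ratio of HFD over chow, with 0.5 counts added to each sum, had a median of -0.07. A ratio of 2-fold or more in favour of HFD was found for 60 genes (2.85%) and against it for 62 (2.95%). Because the 2 libraries differed in their share of fibroblast-sided UMIs, each value was also taken within pericyte-sided cells alone, a step added after the cells had been seen. There 1412 genes were measured, 43 (3.05%) were 2-fold or more higher in HFD and 37 (2.62%) lower, and the median was -0.02. The 13 fibroblast-sided cells were too few for a diet ratio of their own.

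All 5 measured fibroblast genes were 2-fold or more lower in the HFD sum, against the 2.95% of all genes. Dcn stood at 513 CPM in chow and 129 CPM in HFD (log2 ratio -1.98, -2.44 to -1.56), and Serpinf1 at 229 and 51.3 CPM (-2.14). Mfap5 had a ratio of -2.31, Lum of -1.94 and Gsn of -1.73. The chow sum held more fibroblast-sided cells, and within those cells Dcn stood at 710 and 521 CPM. In pericyte-sided cells Dcn had 32 UMIs in chow and 26 in HFD, with 96.9% of the chow UMIs in 1 cell.

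Pericyte genes were higher in the HFD sum, and the difference was smaller within pericyte-sided cells. Over all members 6 of 7 measured genes of the pericyte list lay above the median and 2 were 2-fold or more higher, against 2.85% of all genes. The rule gene Rgs5, at 264 CPM in chow and 539 CPM in HFD, had a log2 ratio of 1.03 (0.66 to 1.42), which became 0.17 (-0.19 to 0.57) in pericyte-sided cells. Gja4 went from 1.11 to 0.29. Igfbp5, outside the list, went from 1.36 (1.23 to 1.49) to 0.52 (0.39 to 0.65). Mgp lay on opposite sides of 0, at 0.39 over all members and -0.55 (-0.60 to -0.51) in pericyte-sided cells, and Spp1 went from 0.73 to -0.09. Within pericyte-sided cells 2 of 5 measured genes of the list lay above the median and 3 below, none by 2-fold. Kcnj8 was the lowest at -0.93 (-1.50 to -0.34). The genes of this list, Gja4 and Kcnj8 among them, set the sides, so their ratios within pericyte-sided cells depend on that choice.

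**Figure D3:**
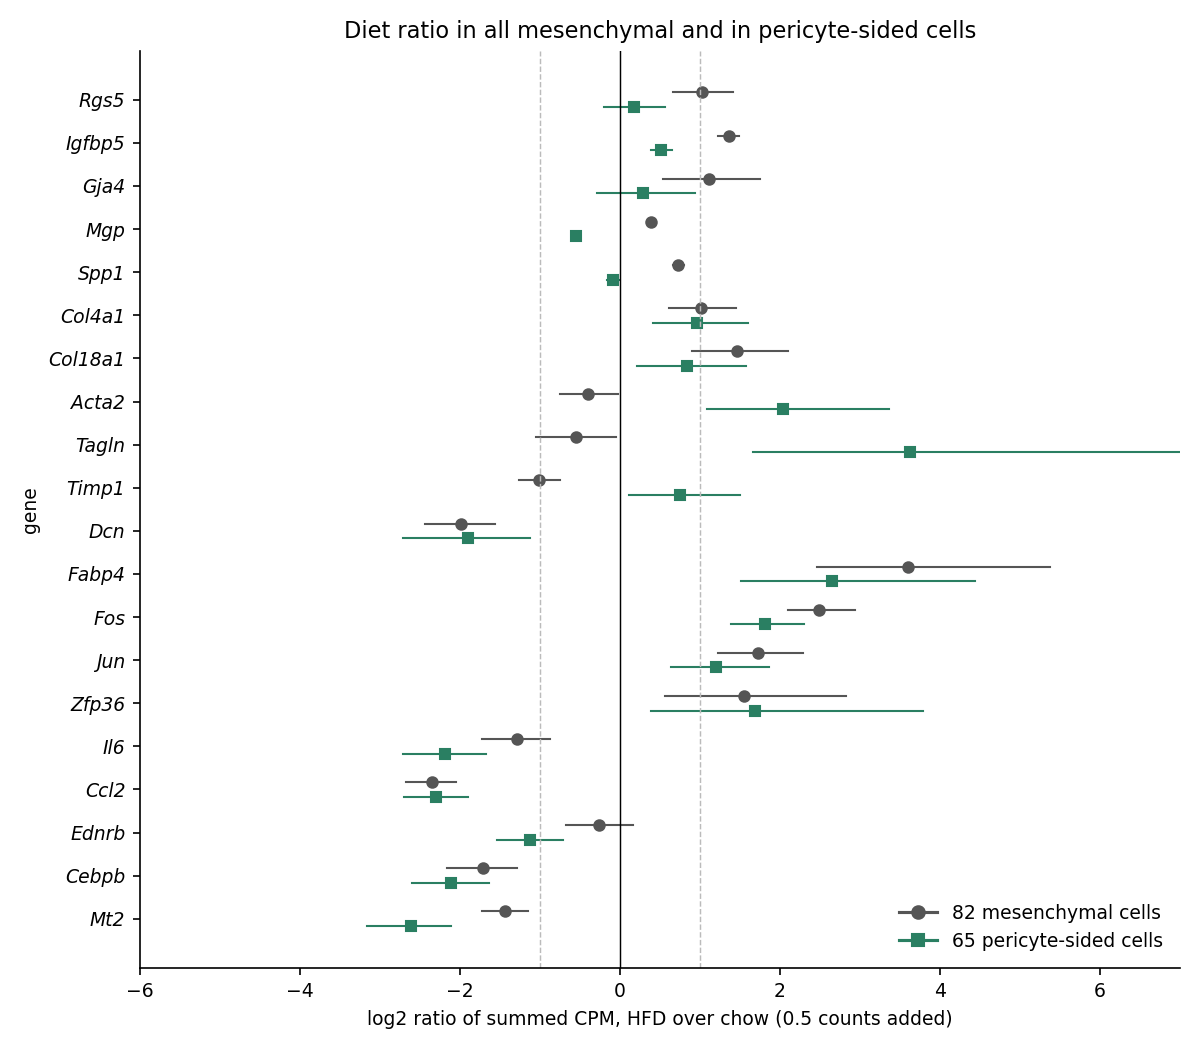
Log2 ratio of summed CPM, HFD over chow (x axis), for 20 genes in all 82 mesenchymal cells (grey circles) and in the 65 pericyte-sided cells (green squares), with exact conditional 95% intervals for counting error; dashed lines mark 2-fold, and the upper end for Tagln lies beyond the axis. Rgs5, Igfbp5 and Gja4 lie nearer 0 in pericyte-sided cells, Acta2, Tagln, Timp1, Mgp and Spp1 have the opposite sign there, and Fos, Cebpb and Ccl2 have the same sign in both.

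Contractile genes also depended on the cells compared. Over all members Acta2 had a ratio of -0.39 (400 CPM in chow, 305 CPM in HFD) and Tagln of -0.55, with 72.3% of chow Tagln counts in 1 cell. Within pericyte-sided cells Acta2 stood at 63.2 CPM in chow and 275 CPM in HFD (ratio 2.04, 1.09 to 3.37), with a UMI in 3 of 20 and 14 of 45 cells. A single cell held 50% of these chow and 35.85% of these HFD counts, and the per-cell median was 0 in both libraries. Tagln had 1 UMI in chow and 56 in HFD pericyte-sided cells (3.63, 1.66 to 9.53), but 46.4% of the latter came from 1 cell. All 6 measured contractile genes lay above the median there, 2 of them by 2-fold or more against 3.05% of all genes, and the list's median was 0.74. Tpm2 stood at 174 and 350 CPM (0.98, 0.35 to 1.73), with 24.4% of its HFD counts in 1 cell. Csrp1, Tpm1 and Cald1 had ratios between 0.30 and 0.49. In endothelial cells Acta2 stood at 4.38 and 3.56 CPM.

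Basement membrane and network collagens were higher in HFD in both comparisons. Col4a1, a chain of the vascular basement membrane, stood at 229 CPM in chow and 453 CPM in HFD pericyte-sided cells (0.96, 0.41 to 1.60), with a UMI in 14 of 20 and 42 of 45 cells. Col4a2, its partner, stood at 356 and 554 CPM (0.63, 0.17 to 1.14), and Col18a1, the precursor of endostatin, at 182 and 332 CPM (0.84, 0.22 to 1.58). All 5 measured collagens outside the rule lay above the median there, none by 2-fold, with a list median of 0.63. Of the rule collagens, Col1a1 had no UMI in chow pericyte-sided cells, which allows up to 23.7 CPM, and 58 UMIs (150 CPM) in 6 of 45 HFD pericyte-sided cells. Col1a2 had a ratio of 0.31 (-0.62 to 1.46) and Col3a1 of 0.16 (-0.53 to 0.96). No cell held more than 24.1% of the Col4a1 counts of a library. In endothelial cells Col4a1 stood at 476 and 700 CPM and Col4a2 at 797 and 1097 CPM, also higher in HFD.

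Other matrix genes divided. Of 7 measured proteoglycans and glycoproteins in pericyte-sided cells, 3 lay above and 4 below the median. Aspn, the small proteoglycan asporin, stood at 372 CPM in chow and 163 CPM in HFD (-1.19, -1.76 to -0.61), and Sparcl1, a matricellular relative of Sparc, at 451 and 225 CPM (interval of the log2 ratio -1.50 to -0.49). Timp1, an inhibitor of matrix metalloproteinases, had opposite signs by cell set: -1.01 over all members, where fibroblast-sided chow cells held 1728 CPM, and 0.75 (0.11 to 1.51) in pericyte-sided cells. Mmp3, a stromelysin, had 265 UMIs in 3 chow fibroblast-sided cells, 79.6% of them in 1 cell, and none in HFD members, where 3 counts would be 6.15 CPM.

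The immediate early genes, transcribed within minutes of a stimulus, included some of the highest ratios. Fos had a UMI in 12 of 20 chow and 42 of 45 HFD pericyte-sided cells, at 364 and 1293 CPM (1.82, 1.39 to 2.30). Its per-cell median was 1.90 and 8.41 per 10000 UMIs, with the highest cell at 20.5 in chow and 51.7 in HFD, so the ranges overlapped. Jun stood at 213 and 497 CPM (1.20, 0.63 to 1.86), and Fosb had 3 and 58 UMIs (2.45, 1.05 to 4.98). The list was divided: 6 of 11 measured genes lay above the median, 3 by 2-fold or more against 3.05% of all genes, and Dusp1, a phosphatase of the same response, had a ratio of -0.95. Fos was higher in HFD in endothelial cells as well (ratio 1.77) and by less in beta cells (0.68), as was Fosb (2.73 and 0.53), so the higher level in HFD was not limited to mesenchymal cells.

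**Figure D4:**
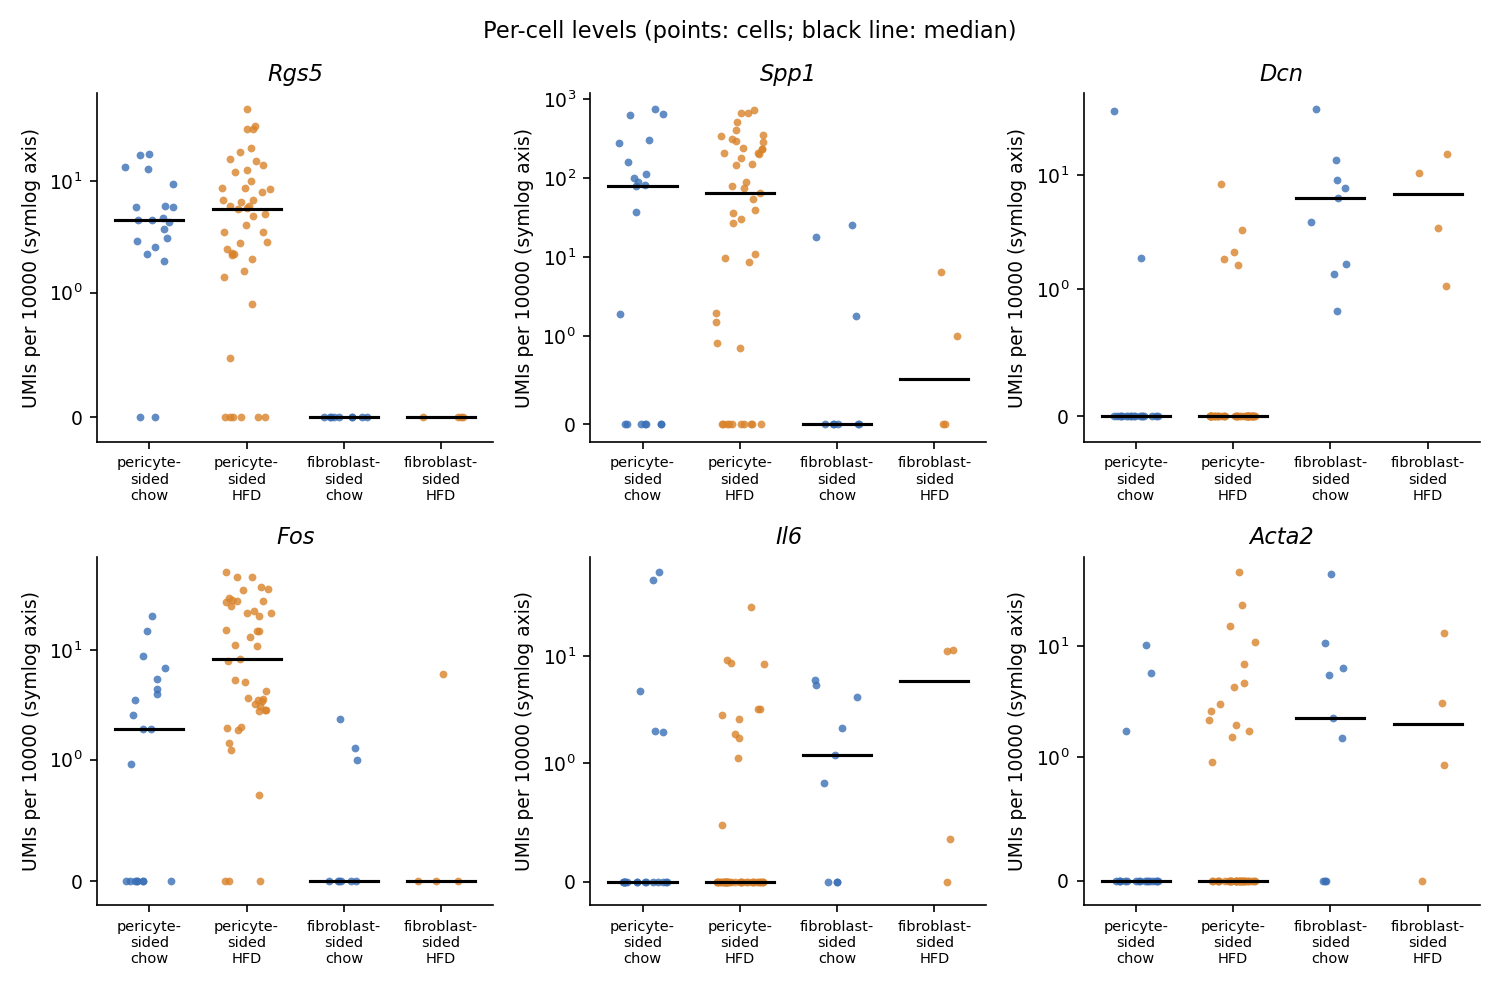
UMIs per 10000 in single cells (y axis, linear below 1 and logarithmic above) for 6 genes, in pericyte-sided and fibroblast-sided cells of the chow (blue) and HFD (orange) libraries; points are cells and black lines medians. Fos is detected in 42 of 45 HFD pericyte-sided cells, Il6 in 5 of 20 chow and 12 of 45 HFD pericyte-sided cells, and Rgs5 in no fibroblast-sided cell.

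Cebpb, a transcription factor of inflammatory and adipogenic responses, was lower in the HFD library across cells. It had a UMI in 19 of 20 chow and 27 of 45 HFD pericyte-sided cells, at 719 and 166 CPM (-2.11, -2.60 to -1.64), with per-cell medians of 7.15 and 1.19 per 10000 UMIs. Over all members the ratio was -1.71. It was lower in HFD also in endothelial (-2.01) and beta cells (-1.14). The lower level was thus found in all 3 cell groups.

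Chemokines and cytokines differed in both directions and rested on few cells. Ccl2, the monocyte chemoattractant, stood at 1218 CPM in chow and 238 CPM in HFD over all members (-2.35, -2.67 to -2.05). In chow pericyte-sided cells 98.6% of its counts lay in 1 cell, and only 3 of 20 had a UMI against 12 of 45 in HFD. Il6 stood at 648 and 142 CPM in pericyte-sided cells (-2.18), with 63.4% of the chow counts in 1 cell and a UMI in 5 of 20 and 12 of 45 cells. By the share of pericyte-sided cells with a UMI neither gene was lower in HFD. Fibroblast-sided cells held Ccl2 in 6 of 9 chow and none of 4 HFD cells. In pericyte-sided cells the chemokine Ccl7 had 2 UMIs in chow and 35 in HFD (2.22, 0.56 to 5.62), in 1 of 20 and 9 of 45 cells, while over all members its ratio was -1.12. Cxcl1, a neutrophil chemoattractant, had 1 and 28 UMIs (2.64, 0.60 to 8.55), in 1 and 5 cells. Both summed counts there were under 50, and these genes were chosen after their values were seen. Over all members 3 of the 5 measured genes of the chemokine and cytokine list were 2-fold or more lower, against 2.95% of all genes. The only one higher by that much was Nfkbia, an intracellular inhibitor of NF-kappaB (1.52; 1.03 in pericyte-sided cells, 0.36 to 1.84).

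Of the receptors and ligands of pericytes, the endothelin B receptor was lower in HFD and a PDGF ligand higher within pericyte-sided cells. Ednrb stood at 672 and 308 CPM (-1.13, -1.54 to -0.71), with a UMI in 18 of 20 and 30 of 45 cells. Over all members the Ednrb ratio was -0.26 (-0.67 to 0.17), within counting error. In endothelial cells, which held more of it, Ednrb had a ratio of 0.48, in the other direction. Pdgfa was higher in HFD, at 348 and 534 CPM (0.60, 0.14 to 1.12).

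Antigen presentation and interferon genes lay lower in HFD pericyte-sided cells, 5 of 5 measured below the median, with 1 past 2-fold against 2.62% of all genes. H2-D1, a class I heavy chain, stood at 411 and 189 CPM (-1.12, -1.65 to -0.58), H2-K1 at 285 and 163 CPM (-0.81) and B2m at 972 and 676 CPM (-0.53, -0.84 to -0.20). H2-D1 and H2-K1 are close copies whose reads can be hard to assign. Ifi27 and Ifitm3 had ratios of -0.86 and -0.41. The unfolded protein response list had 8 of 9 measured genes below the median, with a list median of -0.28 and none past 2-fold.

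Metabolic genes lay near the median of all genes, with a few exceptions. The 24 oxidative phosphorylation genes had a median of 0.05 in pericyte-sided cells, 15 above and 9 below the median of all genes, and 1, Atp5k at 1.08, past 2-fold against 3.05% of all genes. Fabp4, a fatty acid binding protein, had 5 UMIs in chow and 105 in HFD pericyte-sided cells (2.65, 1.51 to 4.43), in 4 of 20 and 22 of 45 cells. Endothelial cells held far more Fabp4, 1845 CPM in chow and 1859 CPM in HFD, without a difference between the libraries. Mt2, a metallothionein, stood at 767 and 124 CPM (-2.62), with 84.5% of the chow counts in 1 cell. Apoe stood at 0 in most pericyte-sided cells and had a UMI in 8 of 9 chow fibroblast-sided cells, with a median of 22.4 per 10000 UMIs.

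**Figure D5:**
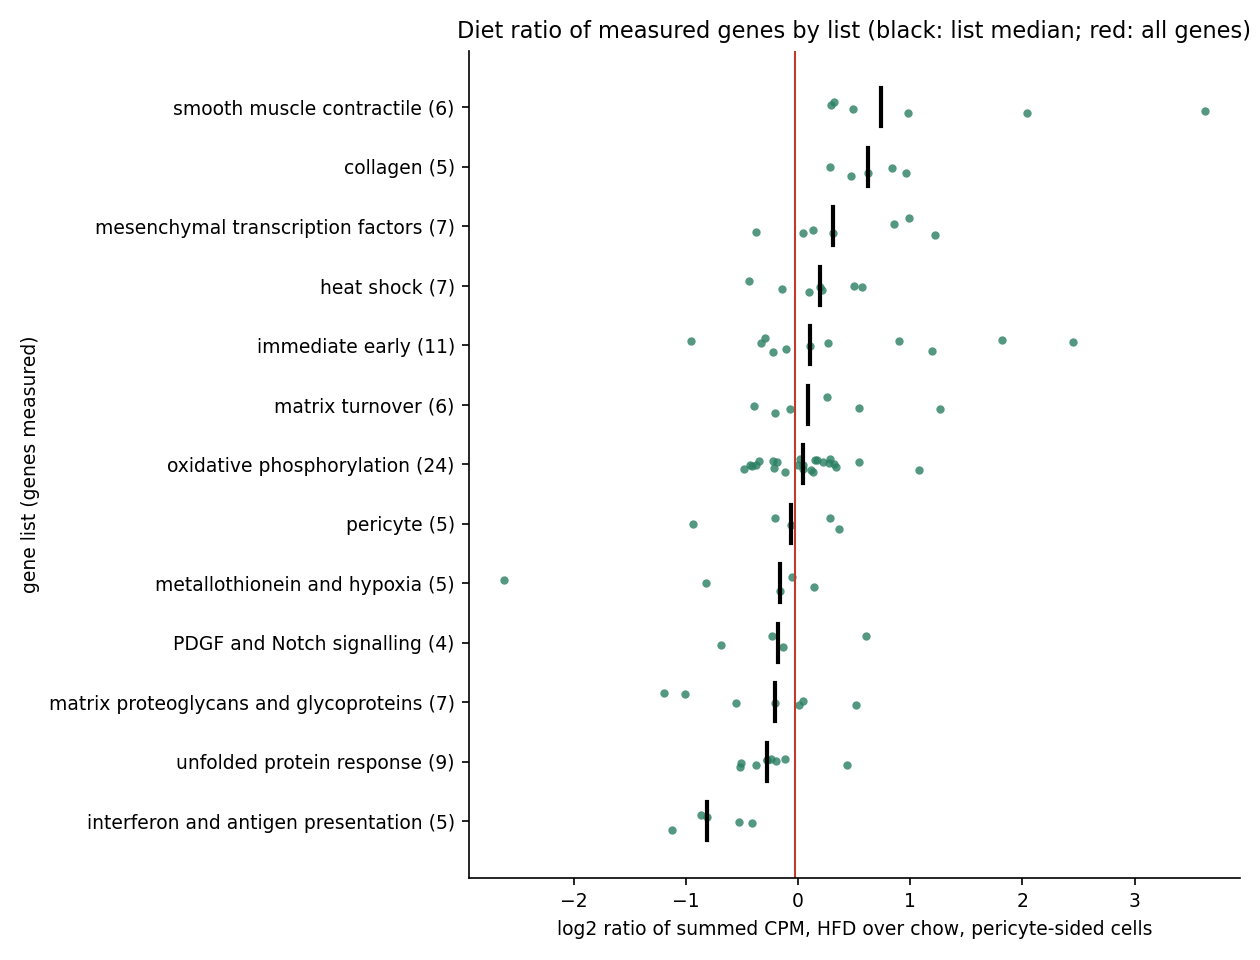
Log2 ratio of summed CPM, HFD over chow (x axis), of each measured gene (points) in the 65 pericyte-sided cells, by gene list (rows, with the number of genes measured); black bars are list medians and the red line is the median of all 1412 genes. The contractile and collagen lists lie wholly to the right of the line and the interferon and antigen presentation list wholly to the left.

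Over all members, the rule for diet genes, which requires a UMI in 20% of cells and no cell with over 20% of the counts in the library where the gene is higher, named Fabp4, Fos, Fosb, Crip1, Jun, Il34, Zfp36, Pik3r1, S100a13, Nfkbia, Col18a1 and Id1 as highest in HFD. Crip1, a small LIM protein, stood at 363 and 1312 CPM (1.85, 1.56 to 2.16), and Id1, an inhibitor of differentiation that responds to bone morphogenetic proteins, at 246 and 683 CPM (1.46, 1.10 to 1.86). In pericyte-sided cells both were smaller, at 0.98 and 0.78. Il34, a ligand of the macrophage receptor Csf1r, stood at 27.4 and 92.3 CPM (1.68, 0.65 to 3.05), and 0.79 (-0.31 to 2.27) in pericyte-sided cells.

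Lowest in HFD by the same rule were, among others, Cyr61, Cebpb, Gadd45b, Gstp1, Brix1, Ppic, Pla2g12a, Nsfl1c, Ruvbl1, Copg1 and Dctn3. Cyr61, a matricellular protein driven by mechanical load, stood at 366 and 109 CPM (-1.75, -2.26 to -1.27), largely from fibroblast-sided chow cells at 543 CPM, and in pericyte-sided cells the ratio was -0.51 (-1.23 to 0.29). Gstp1 was lower in endothelial (-1.85) and beta cells (-1.90) too, and it has close copies among which reads may divide. When the rule was applied within pericyte-sided cells, a step added after seeing them, the ends included Fabp4, Fosb, Gspt1, Fos, Prkcsh, Peak1, Hbegf, Zfos1, Por, Pgls and Tmem160 above and Cebpb, H1f0, Adprh, Bcl7b, Thoc7, Ninj1, Ednrb, Sec61a1, Ctsl, Plxdc2 and Pgrmc1 below. Hbegf, a growth factor of the EGF family, had a UMI in 3 of 20 chow and 25 of 45 HFD cells (1.62, 0.42 to 3.42).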

How the data were processed

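The authors deposited raw UMI counts, whole and not normalized, for 2 libraries made with the 10x Genomics 3' v2 kit, per the labels. Per the submitters' processing notes, Cell Ranger 2.1.0 was used. Which genome build and annotation it ran on, and how barcodes were called as cells, is not given in the sources used here. The smallest barcodes held 3846 and 4017 UMIs. Barcodes needed 500 genes and at most 10% mitochondrial UMIs. The members, gene lists and comparisons were chosen with earlier results of these data known.

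Counts were summed over cells per library and given as CPM, with exact Poisson intervals. Ratios are log2 with 0.5 counts added, with exact conditional binomial 95% intervals, for genes with a summed count of at least 50. Shares have exact Clopper-Pearson intervals. Where a gene was at 0, the limit is that of 3 counts. With 1 library per diet no test was made, and PCR duplicates are collapsed by UMI, so intervals cover counting error only. Endothelial cells, macrophages and Schwann cells were defined by 3 or more markers each, and beta cells by Ins1 and Ins2 at 20% or more of UMIs.

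Named genes were the rule, pericyte, fibroblast and contractile genes; the 20 with the highest contrast to other cells at 100 CPM or more; the 12 highest and 12 lowest diet ratios with a UMI in 20% of members and no cell over 20% of counts in the library where higher; the 10 at each end of the contrast between sides; and, of other lists, the 4 highest and those past 2-fold. Genes outside these, such as Pdgfb, Dll4 and Hbegf, were chosen after their values were seen, as were the comparisons and named genes within pericyte-sided cells. Predicted genes, pseudogenes, mitochondrial genes and markers of other cells were left out of the ranked sets. Doublet scores came from Scrublet in scanpy 1.11.5, as the top 5% per library, and no cell was removed on them. Scaling factors by TMM came from edgeR 4.0.16 as an alternative. The ratio, interval and thinning code was tested on simulated data. The alternatives tried are given in the closing section. Some genes that these rules name are not reported here.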

Additional observations from a re-analysis of the deposited data

How the results depend on the processing

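With 1 library per diet, the alternatives change cells, scaling and filters but cannot show the spread between mice. Requiring 16 rule UMIs lowered the mesenchymal share to 0.313% of chow and 0.865% of HFD cells, and in the other alternatives run the shares stayed within their counting intervals. The number of genes 2-fold or more higher in HFD and of genes 2-fold or more lower in HFD followed the filter on low counts. Against 60 and 62 of 2103 genes (2.85% and 2.95%), it was 13 and 21 with cells thinned to 3800 UMIs. It was 239 and 195 with a summed count of at least 20, and 1785 and 1792 with a summed count of at least 1. Fewer or more genes are tested in these alternatives, so their counts cannot be compared as shares. Within pericyte-sided cells it was 43 and 37 of 1412 genes (3.05% and 2.62%). TMM scaling gave 66 higher and 54 lower. Leaving out the members with 10% or more hormone UMIs, chosen after seeing the data, gave 61 and 67. The ratio of Timp1 changed sign from -1.01 to 0.75 in pericyte-sided cells and to 0.72 as their mean over cells. Cryab, 1.13 over all members, was -0.22 with 16 or more rule UMIs and -0.24 as the mean over pericyte-sided cells; 1 tied HFD cell with UMIs of 4 Schwann genes held most of its HFD counts, and the cause was not tested. No paired analysis was possible because each diet has 1 library.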
